A study of Caenorhabditis elegans with 6 samples.

Results

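The transcripts described here encode the fatty acid desaturases and elongases of Caenorhabditis elegans: the 7 desaturase genes fat-1 to fat-7 and the 3 elongase genes elo-1, elo-2 and elo-5. They were taken by gene symbol from the 46748 genes of the deposited count table, each symbol matched 1 row, and all 10 passed the filter on low counts. RNA came from whole adult hermaphrodites of strain N2, the wild type, taken 5 days past the L4 larval stage, and no mutation or transgene is named for any of them. By the perturbation label, 3 libraries belong to L4440, the empty plasmid fed as the control in feeding RNAi, and 3 to T25B9.1, the predicted glycine C-acetyltransferase gene that the RNAi was aimed at. The source field, however, gives T25B9.1 RNAi for every one of the 6 libraries.

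Worms make polyunsaturated fatty acids from saturated ones without a dietary supply. Delta-9 desaturases place the first double bond in palmitate (FAT-5) or stearate (FAT-6 and FAT-7), and FAT-2 adds the next, giving linoleate. FAT-3, ELO-1 and FAT-4 then desaturate, lengthen and desaturate the chain again, and FAT-1 converts omega-6 to omega-3 chains. ELO-2 lengthens palmitate, and ELO-5, with ELO-6, makes branched chains whose precursors come from leucine. These enzymes are known mainly from the intestine, the main site of lipid synthesis in the worm.

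The target was not lower in the libraries that carry its name. T25B9.1 had 2.59, 3.68 and 3.28 CPM (counts scaled by library size with TMM factors) under the L4440 label and 6.73, 12.7 and 12.1 under its own label (log2 fold change 1.73, SE 0.245, edgeR adjusted p = 0.00483). Directions below therefore compare the T25B9.1 label with the L4440 label, and the counts cannot tell whether labels were exchanged, the gene rose, or double-stranded RNA from the bacteria was read. Library totals ran from 25480225 to 38621940 counts. Each of the 10 genes had between 1077 and 54689 counts in every library, so that counting error alone (exact Poisson 95% interval) came to 0.839% to 6.02% of a value on either side. The labels do not say whether libraries of a group came from separate cultures. The p-values thus set group differences against the spread between these libraries, which may be technical.

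Transcripts for 4 enzymes of the pathway differed between the label groups, and those for the other 6 did not pass the test. The delta-6 desaturase gene fat-3 rose 1.70-fold, while the delta-9 desaturase genes fat-7 and fat-5 fell by 50.3% and 38.7% and the branched-chain elongase gene elo-5 fell by 26.5%. By edgeR's quasi-likelihood test with Benjamini-Hochberg adjustment over all genes, 1 of the 10 genes was higher and 3 were lower at an adjusted p of 0.05. Among the 13494 genes tested, 3.42% passed, 1.13% higher and 2.29% lower. The other 6 genes had log2 fold changes from -0.27 to -0.09. All but fat-3 had a negative log2 fold change, although that of fat-1 was 0.03 on the deposited RPKM values, and the median was -0.20, against 0.008 over all genes tested. On the deposited RPKM values, whose scaling is uneven between rows, none of the 4 calls held (limma adjusted p = 0.155 for fat-7 and 1 for fat-3, fat-5 and elo-5).

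**Figure D1:**
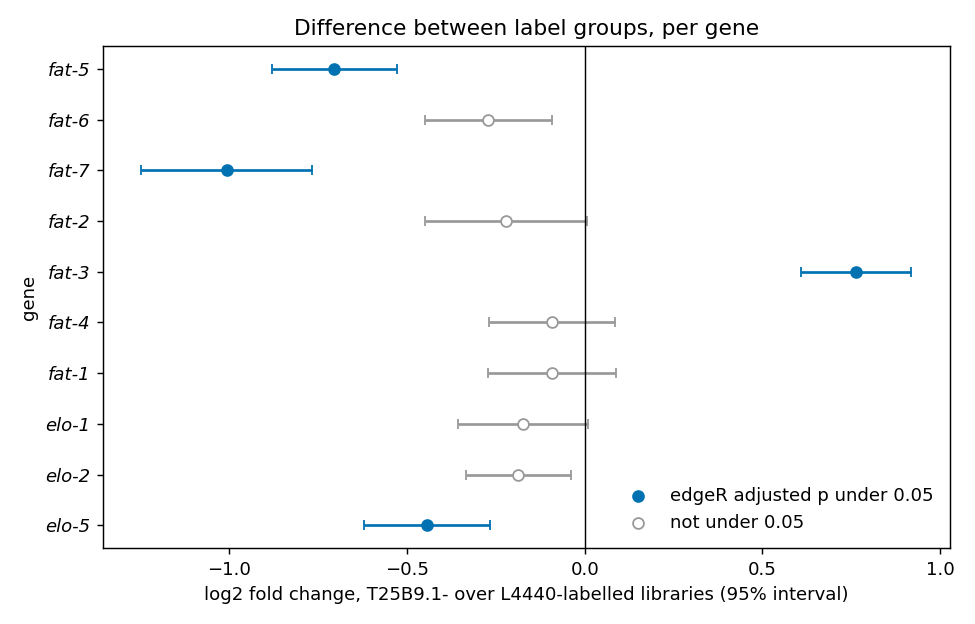
Log2 fold change of each gene between libraries labelled T25B9.1 and L4440 (3 of each) with the 95% interval of the edgeR fit, in which filled points have an adjusted p under 0.05. The interval of fat-3 (0.61 to 0.92) lies above 0, those of fat-5, fat-7, elo-5, fat-6 and elo-2 lie below it, and the point estimates of the 6 open points run from -0.27 to -0.09.

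The delta-9 desaturases act first in the pathway, and their 3 genes differed in how far they were lower. For fat-7, one of the stearoyl-CoA desaturases, levels were 83.7, 84.7 and 109 CPM under the L4440 label and, under the T25B9.1 label, 44.3, 43.2 and 50.3. The groups were well apart, with each library labelled T25B9.1 below each one labelled L4440, and the gene fell by 1.01 on the log2 scale (SE 0.107, edgeR adjusted p = 0.000851). For fat-5, which acts on palmitate, levels were 193, 176 and 188 CPM against 124, 102 and 116. Here too the groups did not overlap (log2 fold change -0.71, SE 0.0796, edgeR adjusted p = 0.000771). The stearoyl-CoA desaturase gene fat-6 had 376, 392 and 440 CPM against 340, 324 and 336. Its libraries did not overlap either, but the difference was smaller and did not pass (log2 fold change -0.27, 95% interval -0.45 to -0.09, edgeR adjusted p = 0.127). By DESeq2, fat-6 passed (adjusted p = 0.0337), and so it did by edgeR with no filter on low counts (adjusted p = 0.0387).

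Since fat-6 and fat-7 encode close paralogs with the same activity, their levels were also set against each other within each library, per kilobase of exon. The ratio of fat-7 to fat-6 was 0.231, 0.224 and 0.256 under the L4440 label and 0.135, 0.138 and 0.155 under the T25B9.1 label. The ratio of fat-5 to fat-6 went from 0.489 ± 0.0463 to 0.360 ± 0.0273 (SD, n = 3). In both cases all libraries labelled T25B9.1 lay below all labelled L4440, so in these libraries fat-7 and fat-5 were lower relative to fat-6 as well. An exact permutation test of 3 against 3 libraries, two-sided, gave p = 0.1 for each ratio, the smallest it can give (also 0.1 after adjustment over the 5 ratios compared, which were chosen with values known). The sources used here do not say how the counting treated reads that match both paralogs, so the split of reads between fat-6 and fat-7 is uncertain.

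The chain then passes to FAT-2, FAT-3, ELO-1, FAT-4 and FAT-1, and of these genes fat-3 alone passed the test, in the opposite direction to the delta-9 desaturases. For fat-3, whose product makes gamma-linolenate and stearidonate, levels were 76.1, 81.4 and 90.1 CPM under the L4440 label and 141, 137 and 142 CPM under the T25B9.1 label. The lowest library labelled T25B9.1 was thus well above the highest one labelled L4440 (log2 fold change 0.76, SE 0.0706, edgeR adjusted p = 0.00027). The spread within the group labelled T25B9.1 was a coefficient of variation of 1.88%, the smallest among the 10 genes in either group.

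The delta-12 desaturase gene fat-2 had 1137, 1147 and 1361 CPM against 1053, 1003 and 1070. The groups did not overlap, L4440 replicate 3 was the highest library, and the gene did not pass (log2 fold change -0.22, 95% interval -0.45 to 0.01, edgeR adjusted p = 0.402). For elo-1, which lengthens the product of FAT-3, levels were 340, 325 and 378 CPM against 320, 288 and 317. These groups were separated by little (log2 fold change -0.17, 95% interval -0.36 to 0.01, edgeR adjusted p = 0.425). The delta-5 desaturase gene fat-4 (319, 346 and 367 against 343, 311 and 315 CPM) and the omega-3 desaturase gene fat-1 (569, 581 and 622 against 569, 525 and 568 CPM) overlapped between groups. Each had a log2 fold change of -0.09, with 95% intervals of -0.27 to 0.09 (edgeR adjusted p = 0.737 for fat-4 and 0.744 for fat-1).

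Of the 10 genes, 8 lie on chromosome IV and 2, fat-5 and fat-7, on chromosome V. In build WBcel235 (Ensembl release 115), fat-4 (chromosome IV, 9799429 to 9802226) and fat-3 (9803023 to 9806119) both lie on the plus strand with 796 bases between them. The ratio of fat-3 to fat-4 per kilobase of exon was 0.246, 0.243 and 0.253 under the L4440 label and 0.424, 0.456 and 0.467 under the T25B9.1 label. The levels of fat-3 and fat-4 thus moved apart by 0.86 on the log2 scale (SE 0.0463), with no overlap between groups (exact permutation p = 0.1, two-sided). Likewise fat-1 (13315644 to 13318811) and fat-2 (13323873 to 13326395) both lie on the plus strand, 5061 bases apart. Whether other genes lie within these gaps was not examined. Their ratio differed less, at 0.432 ± 0.0239 against 0.471 ± 0.00762 (SD, n = 3; exact permutation p = 0.1, two-sided). On chromosome V, fat-5 (17725004 to 17726818, plus strand) and fat-7 (7151353 to 7153146, minus strand), which both fell, lie 10571857 bases apart.

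**Figure D2:**
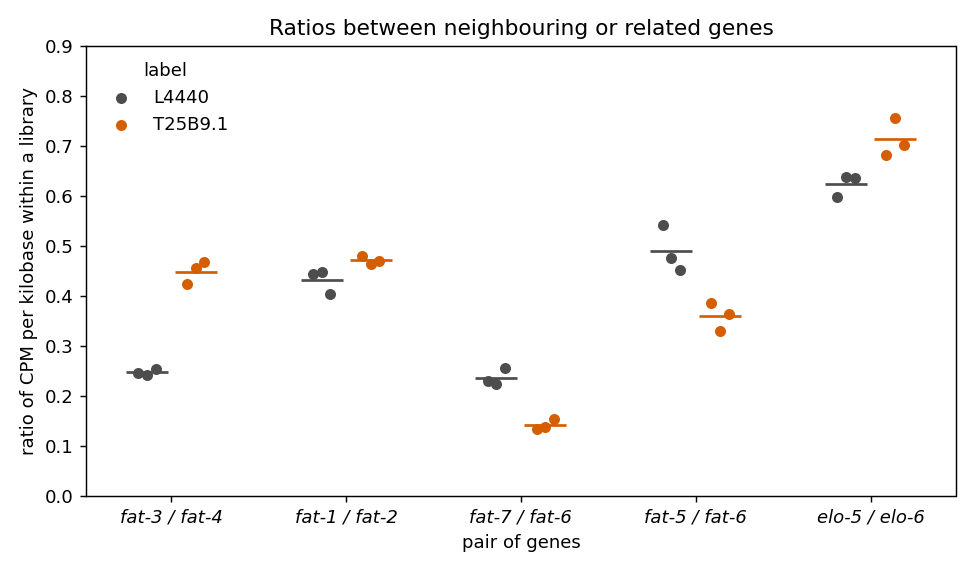
Ratio of CPM per kilobase of exon between pairs of genes within each library, with points for libraries and lines for group means (3 libraries each). The ratio of fat-3 to fat-4 lies between 0.243 and 0.253 under the L4440 label and between 0.424 and 0.467 under the T25B9.1 label. No pair overlaps between groups, but the pairs were chosen with values known.

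Of the 3 elongase genes, elo-5 fell and elo-1 and elo-2 did not pass the test. For elo-5, levels were 127, 148 and 152 CPM under the L4440 label and 112, 103 and 98.8 under the T25B9.1 label. All 3 of the latter lay below the lowest one labelled L4440, and elo-5 fell by 0.44 on the log2 scale (SE 0.0804, edgeR adjusted p = 0.0113). Without T25B9.1 replicate 3 it did not pass (log2 fold change -0.40, edgeR adjusted p = 0.0526). The palmitate elongase gene elo-2 had 87.5, 92.0 and 98.1 CPM against 86.3, 78.2 and 79.4. Its groups did not overlap, by a narrow margin, and it did not pass (log2 fold change -0.19, SE 0.0666, edgeR adjusted p = 0.222). In the annotation elo-5 shares 162 of its 922 exon bases with F41H10.3 on the other strand, and the library kit does not mark strand. F41H10.3 had 252, 186 and 198 CPM against 205, 231 and 209, a difference of 0.02 on the log2 scale (SE 0.110, edgeR adjusted p = 0.972). Whether reads from the shared bases bear on the counts of elo-5 was not tested. The exons of fat-5 overlap those of twk-42 by 28 bases, and twk-42 had 0.562 to 1.60 CPM over the 6 libraries.

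Per kilobase of exon, the 10 transcripts spanned a wide range of levels. In the L4440-labelled libraries the highest was fat-2, at 968 ± 101 CPM per kilobase (SD, n = 3), followed by fat-1 at 417 ± 19.5. Then came fat-6 (345 ± 28.4) and elo-1 (328 ± 25.8), whose libraries overlapped, and fat-4 (223 ± 15.6). Next were fat-5 (168 ± 7.61) and elo-5 (154 ± 14.1), which overlapped, then elo-2 (89.2 ± 5.14) and fat-7 (82.1 ± 12.6), which overlapped as well. The lowest was fat-3, at 55.3 ± 4.76, which is 17.5-fold below fat-2. In the libraries labelled T25B9.1 fat-3 stood at 93.9 ± 1.77, its libraries overlapping those of fat-5 (103 ± 10.2) and lying above those of elo-2 (78.4 ± 4.23). The lowest place was then held by fat-7, at 40.8 ± 3.40, 20.3-fold below fat-2 (830 ± 27.7). Of the summed level per kilobase of the 10 genes, fat-2 made up 34.2% in the L4440-labelled libraries and 34.1% in those labelled T25B9.1. The share of fat-3 was 1.95% and 3.86%, and that of fat-7 was 2.89% and 1.67%.

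**Figure D3:**
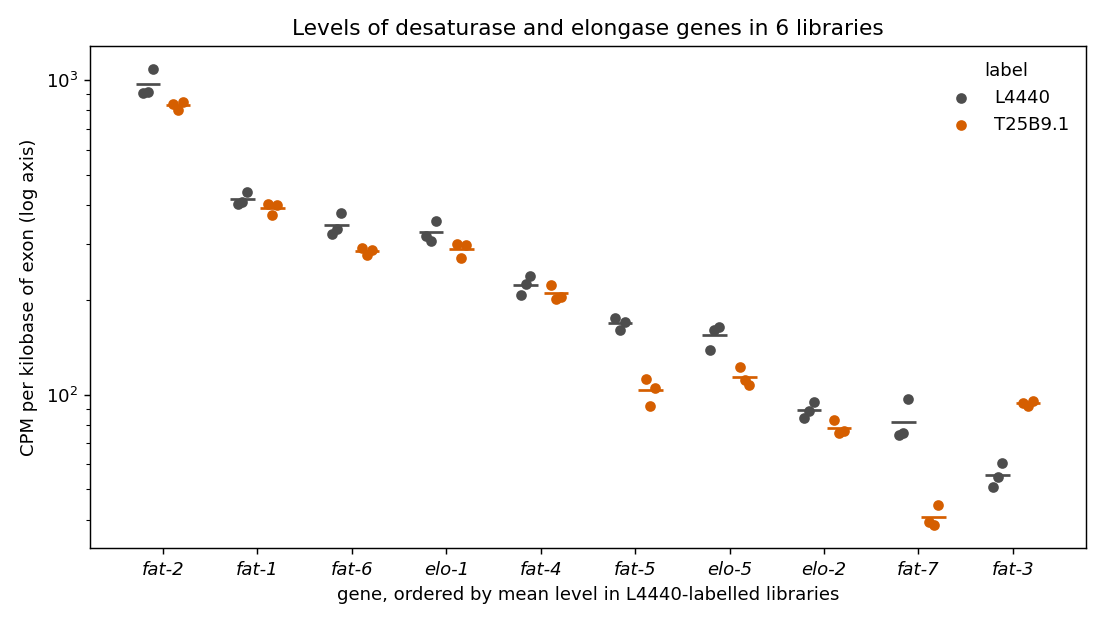
Level of each gene in CPM per kilobase of exon (log axis) in every library, with lines for group means. The order runs from fat-2 to fat-3 in the L4440-labelled libraries, and fat-3 is the gene whose 3 libraries labelled T25B9.1 (92.0 to 95.5) lie above those labelled L4440 (51.0 to 60.4).

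The libraries of a group also differed among themselves. Within the L4440 label 9 of the 10 genes were highest in replicate 3, and within the T25B9.1 label 9 of 10 were lowest in replicate 2. The same was not counted over all genes tested, so it cannot be called particular to these genes. Together the 10 genes held 0.322%, 0.331% and 0.396% of the library's counts under the L4440 label and 0.321%, 0.278% and 0.317% under the T25B9.1 label. For 8 of the 10 genes the label groups had no overlap, and 7 of these were lower, where 17.9% of all genes tested did not overlap and 9.6% did not overlap and were lower. Without L4440 replicate 3, the log2 fold change was -0.87 for fat-7, -0.70 for fat-5, 0.83 for fat-3 and -0.40 for elo-5, all with an edgeR adjusted p under 0.05. For fat-2 it was then -0.13 (edgeR adjusted p = 0.851) and for fat-6 -0.20.

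Other genes of the pathway were counted in 6 lists, which held 54 tested genes. None of them was higher by edgeR, DESeq2 or limma-voom (2 were higher at an unadjusted edgeR p under 0.05), and 4 of the 54 were lower, each in a different list, where 2.29% of all genes tested were lower. Their median log2 fold change was -0.03, and 33 of the 54 were negative, against 47.4% of all genes tested. Of 5 other elongase genes tested (elo-7 was below the filter), elo-6 passed, the partner of elo-5 in branched-chain synthesis. It had 214, 233 and 239 CPM against 166, 136 and 141, with no overlap between groups (log2 fold change -0.63, SE 0.0850, edgeR adjusted p = 0.00209). Both genes lie on the minus strand of chromosome IV, elo-5 at 5374616 to 5377117 and elo-6 at 5386629 to 5388559, 9511 bases apart. The ratio of elo-5 to elo-6 per kilobase was 0.624 ± 0.0229 and 0.713 ± 0.0385 (SD, n = 3), so elo-6 was lower by more (exact permutation p = 0.1, two-sided).

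In the list of 6 genes for branched-chain precursors, acs-1, an acyl-CoA synthetase gene needed for branched-chain fatty acids, was lower. Whether acs-1 acts in the supply of precursors was not tested. Its levels were 233, 227 and 234 CPM against 181, 175 and 164, and the groups stood clearly apart (log2 fold change -0.42, SE 0.0656, edgeR adjusted p = 0.00541). The branched-chain aminotransferase gene bcat-1 and the 4 genes of the branched-chain ketoacid dehydrogenase complex did not pass, with log2 fold changes from -0.14 to -0.03. Among 5 electron donor genes, cytb-5.1, a cytochrome b5 gene, was lower (77.5 ± 3.24 against 62.6 ± 3.12 CPM, SD, n = 3, with no overlap; log2 fold change -0.31, SE 0.0629, edgeR adjusted p = 0.0222). This call was lost without L4440 replicate 3 (edgeR adjusted p = 0.104) and without T25B9.1 replicate 1, 2 or 3 (0.0668, 0.0874 and 0.0656). Of 14 genes that use unsaturated chains, cyp-33E2, a cytochrome P450 gene, was lower (log2 fold change -0.46, SE 0.106, edgeR adjusted p = 0.0396). Leaving out L4440 replicate 2 or 3 ended this call (edgeR adjusted p = 0.122 and 0.162), as did leaving out any 1 of the libraries labelled T25B9.1 (0.170, 0.128 and 0.0709 for replicates 1, 2 and 3).

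None of the 8 genes of fatty acid synthesis and the rest of the elongation cycle passed by edgeR, DESeq2 or limma-voom with all libraries (2 had an unadjusted edgeR p under 0.05). Those of smallest p were the dehydratase gene hpo-8 (log2 fold change -0.22, edgeR adjusted p = 0.127) and let-767, a ketoacyl-CoA reductase gene (-0.20, edgeR adjusted p = 0.132). Without L4440 replicate 1, hpo-8 passed (-0.28, edgeR adjusted p = 0.0479). Nor did any of 16 regulators pass by these 3 tools (2 had an unadjusted edgeR p under 0.05), among them nhr-49, nhr-80 and mdt-15, which are known to control delta-9 desaturase genes. Here the smallest p belonged to sbp-1, the worm's SREBP gene (log2 fold change -0.23, 95% interval -0.43 to -0.03, edgeR adjusted p = 0.291), and to paqr-2, an adiponectin receptor-like gene of membrane fluidity (0.16, 95% interval 0.01 to 0.30, edgeR adjusted p = 0.314). For nhr-49, nhr-80 and mdt-15 the log2 fold changes were 0.07, -0.19 and 0.15.

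**Figure D4:**
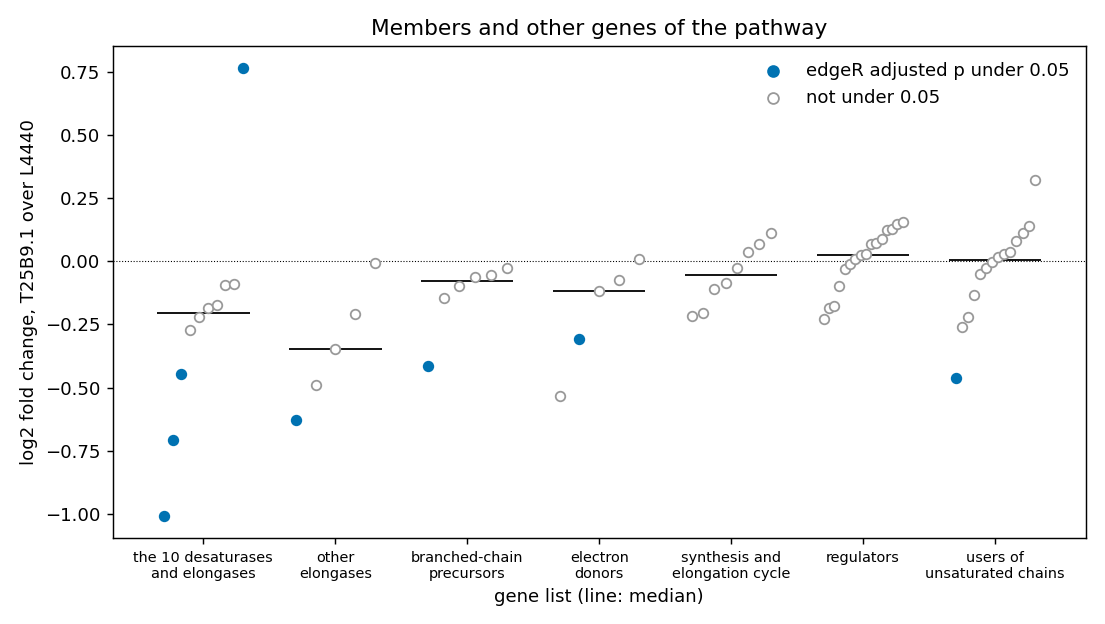
Log2 fold change (T25B9.1- over L4440-labelled libraries) of the 10 desaturase and elongase genes and of the tested genes of 6 pathway lists, with lines for list medians and filled points for an edgeR adjusted p under 0.05. Filled points below 0 in the pathway lists are elo-6, acs-1, cytb-5.1 and cyp-33E2, and the regulators lie between -0.23 and 0.16.

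The genes whose profile over the 6 libraries was most like that of each changed gene were sought among 10286 other genes with a mean of at least 50 counts. Likeness was the root mean square difference of log2 CPM after centring each gene on its mean, which is a description without a test and largely follows the difference between label groups. For fat-3 the nearest were ifb-2, an intestinal intermediate filament gene (0.0808), F14D7.6 (0.0913) and spp-8, of the saposin-like family (0.0982). For fat-5 they were C54C6.7 (0.0430), srdh-1 (0.0602) and cest-8 (0.0650). For fat-7 they were spp-17 (0.0794), col-183 (0.0944) and ugt-44 (0.102), and for elo-5 stdh-1 (0.0126), snb-2 (0.0403) and prmt-6 (0.0432).

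Whole animals were sequenced, so fewer cells of a type and less RNA per cell cannot be told apart. Of 11 intestinal marker genes, 2 were higher by edgeR (ifb-2 and the protease gene cpr-1) and 1 lower (the transporter gene pgp-1), where 3.42% of all genes tested passed. DESeq2 called 4 of the 11, 2 of them higher, and the median log2 fold change was -0.04. Their summed level was 1703 to 1773 CPM in the L4440-labelled libraries and 1676 to 2084 in those labelled T25B9.1. Of the 11, 6 had a negative log2 fold change and 5 a positive one. Among those that edgeR did not call, pho-1, act-5, ges-1, elt-2 and vha-6 had -0.31, -0.29, -0.28, -0.11 and -0.04. The uncalled asp-1, erm-1 and mtl-2 had 0.02, 0.03 and 0.10. For act-5 and ges-1 the edgeR adjusted p was 0.127 and 0.0639. None of the markers of hypodermis (9 tested), germline (12), body-wall muscle (8) or neurons (8) passed by edgeR, DESeq2 or limma-voom (2 of hypodermis and 1 of neurons had an unadjusted edgeR p under 0.05), and the 12 germline markers had small positive values of 0.03 to 0.19. None of these marker genes was at 0 in all libraries. The part of these shifts in the results for fat-3, fat-5, fat-7 and elo-5 was not tested.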

How the data were processed

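The authors deposited whole-number counts of reads per gene, per the submitters' processing notes, which name build WBcel235, featureCounts 1.4.6-p4, STAR 2.4.1d and bcl2fastq 1.8.4. Strand use and the handling of shared reads are not given in the sources used here. They also deposited RPKM values, in which the divisor, taken relative to L4440 replicate 1, cycles with a period of 36 rows (SD of its log2 5.62e-05 within a class, 0.305 over all rows). For the 10 genes it departs from the ratio of library totals by up to 2.21-fold, so RPKM served only as an alternative. Libraries were grouped by the perturbation label and numbered in accession order.

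Counts were tested with edgeR 4.0.16 in R 4.3.3 (quasi-likelihood F-test, robust, TMM factors, filterByExpr with a minimum count of 10, no covariate) over 13494 genes, calling an adjusted p (Benjamini-Hochberg) under 0.05. SE is the log2 fold change over the root of F. Levels in CPM were divided by the union of exons in Ensembl release 115 where given per kilobase. The test was first tried on simulated data. There the share of false calls was above the 0.05 threshold, and part of the smaller changes was missed.

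The genes, lists and alternatives were chosen with earlier results of these data known. Named are all 10 genes, the target, the genes of each pathway list that passed (otherwise the 2 of smallest p), and the 3 nearest profiles per changed gene; nhr-49, nhr-80, mdt-15, bcat-1, the marker genes, F41H10.3 and twk-42 were added after their values were seen. Alternatives were DESeq2 1.42.0, limma-voom (limma 3.58.1), upper-quartile or RLE factors, no filter, a filter at a mean of 50 counts, limma with trend on log2(RPKM + 1), a block of consecutive library numbers, and leaving out each library.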

Additional observations from a re-analysis of the deposited data

How the results depend on the processing

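The rise of fat-3 and the falls of fat-5 and fat-7 kept their direction and their call under RLE and upper-quartile factors, no filter, a mean of at least 50 counts, DESeq2, limma-voom, the block of consecutive library numbers and without any 1 library. With 1 library left out, the log2 fold change of fat-3 ran from 0.69 to 0.83, that of fat-5 from -0.77 to -0.64, that of fat-7 from -1.09 to -0.87 and that of elo-5 from -0.54 to -0.40. Of the 10 genes, 1 was then called higher and 2 to 3 were called lower. The number of pathway genes called lower was 2 to 5 with 1 library left out, and 2 without L4440 replicate 3 or T25B9.1 replicate 1, 2 or 3. Over all genes, 461 calls became 719 with no filter and 272 to 517 with 1 library left out, among them 296, 272 and 307 without L4440 replicate 2, L4440 replicate 3 and T25B9.1 replicate 1.

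On the deposited RPKM, log2(RPKM + 1) by limma with trend, 55 genes passed in all, and 0 of the 10 genes (0 higher, 0 lower) and 0 pathway genes did. The log2 fold changes were 0.65 for fat-3, -0.57 for fat-5, -1.07 for fat-7 and -0.54 for elo-5, and the cause of the lost calls was not tested. The labels give no replicate numbers that pair libraries; with a block of consecutive library numbers from the titles, 597 genes passed, and the calls among the 10 genes stayed at 1 higher and 3 lower. Counting error (exact Poisson 95% interval) came to at most 6.02% of a value on either side. Coefficients of variation (SD over the mean) within a group of 3 libraries ran from 1.88% to 15.4%. An interval half-width and an SD are unlike measures, so these values cannot be compared directly.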
